A study of Mus musculus with 12 samples.

Results

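The 6 chow livers are the untreated side of a diet study, and they are described here on their own, as a baseline of liver gene expression with its spread between livers. They were chosen by their diet label, and make up 6 of the 12 liver samples of the series. All 6 came from male C57Bl/6J mice, 13 weeks of age, that ate plain chow during the 1 week in which the remaining animals of the study had norUDCA mixed into theirs. The livers were frozen in liquid nitrogen, total RNA was isolated with TRIzol and libraries were made with NEBNext reagents. The titles of all 6 libraries carry the letters WT, taken here as wild type, with the numbers 2, 3, 7, 8, 16 and 17, by which they are named below. The labels do not say whether each library is a separate animal or how the animals were housed. Nor do they say when the animals were killed or whether they had been fasted. Every p-value below rests on the differences between these 6 libraries, which may in part be technical. The scatter test asks whether a gene varied more than genes of like abundance, and the pair test whether a pair of genes correlated.

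The liver makes most proteins of the blood plasma, and its hepatocytes also run bile acid synthesis, lipid and glucose metabolism and the clearance of foreign compounds. Several of these programmes are known to follow signals from outside the cell. Plasma proteins of the acute phase follow cytokines, lipogenic enzymes follow insulin and feeding, clock genes follow the time of day, and the major urinary proteins (Mup) follow pulses of growth hormone in males. These known inputs set the order in which the gene groups are described below.

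Each library held between 12209706 and 13715026 counts in annotated genes, and 17264 to 17471 genes had at least 1 count. After removal of genes with few counts, 11117 of 35275 genes were analysed. Levels are given as CPM, each count divided by the scaled size of its library (TMM). Genes are ranked by abundance on their share of counts, and neither this share nor CPM corrects for gene length. TPM, which also divides by gene length, is given for some genes. Library 2 stood apart before any gene was examined singly. On the leading principal component, with 38.0% of the variance in log2 CPM, library 2 lay at -34.6, against 16.8 and 19.9 for libraries 16 and 17. The correlation of log2 CPM between libraries was 0.966 to 0.988. Library 2 held the highest value of 2650 genes (23.8%) and the lowest of 2606 (23.4%), while for library 8 these numbers were 1437 (12.9%) and 1446 (13.0%). Its mitochondrially encoded share was the lowest. For each called gene described below, the libraries whose removal ended its call are named. Of 100 called genes in the text, 28 were no longer called without library 2, and 48 were lost without at least 1 of the libraries. Hepatocyte markers summed to between 74953 and 91789 CPM and none of the 11 was called variable. Of 12 markers of pancreatic acinar cells 4 had no count in any of the libraries (Pnlip, Try4, Cpa1 and Amy2a5), and the list summed to 26.3 to 38.4 CPM, most of it from Cela1 with 311 to 509 counts. The 7 markers of skeletal muscle summed to 0.471 to 1.95 CPM.

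Relatively few genes took a large part of the counts in the baseline transcriptome. The 10 most abundant genes of a library took 18.3 ± 0.936% of its counts, the 50 most abundant took 37.0 ± 1.5005%, and the 100 most abundant took 46.0 ± 1.40% (SD, n = 6). Between 112 genes in library 2 and 150 genes in library 3 were enough to reach 50% of the counts. Genes at or above 500 CPM numbered 257 and took 57.7% of all counts, while the 6272 genes between 5 and 50 CPM took 12.3%. Protein-coding genes took 95.8 ± 0.764% of the counts and long intergenic non-coding RNAs 3.93 ± 0.773%.

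Albumin (Alb), the main carrier protein of plasma, was the most abundant gene, with 4.20 ± 0.789% of the counts and 38930 ± 7698 TPM (SD, n = 6). It had 33913 CPM in library 7, a median of 40564 CPM, and 51672 CPM in library 3, a range of 1.52-fold. Apolipoprotein E (Apoe) followed among nuclear protein-coding genes with 1.66 ± 0.181% of the counts, ahead of the protease inhibitors Serpina1e (1.35 ± 0.393%) and Serpina3k (1.33 ± 0.171%). The urinary protein Mup3 took 0.903 ± 0.118%, and Apoa1, the main protein of high-density lipoprotein, 0.8002 ± 0.0837%. The 3 fibrinogen chains Fga, Fgb and Fgg took 0.793 ± 0.313%, 0.742 ± 0.257% and 0.689 ± 0.241%. Also among the 20 most abundant genes were fetuin A (Ahsg), complement C3, hemopexin (Hpx), haptoglobin (Hp), the fatty acid desaturase Scd1 and the pregnancy zone protein Pzp. On the TPM scale, which divides by gene length, the small apolipoprotein Apoa2 entered the leading genes with 15972 ± 2912 TPM. That was close to the 15897 ± 2068 TPM of mt-Nd1 and within the spread between libraries. Mup3, with 17359.5 ± 2437.6 TPM, ranked above Serpina1e (16194 ± 4610 TPM) and Serpina3k (12202 ± 1564 TPM) on this scale.

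The second most abundant entry was not a typical liver gene. Yam1, annotated as a long intergenic RNA on chromosome 17 (39846958 to 39848788), took 3.63 ± 0.797% of the counts and 37359 ± 8008 TPM, and hence nearly the whole share of its class. It overlaps the 18S ribosomal RNA sequence Rn18s-rs5 of RefSeq (GRCm38.p6, 39846354 to 39848202) over 1245 bases, or 68.0% of its length. Its level was 23854 CPM in library 16, with a median of 37673 CPM and 46692 CPM in library 17. Counts at this position can come from ribosomal RNA, and share percentages of all other genes have these counts in their denominator.

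**Figure D1:**
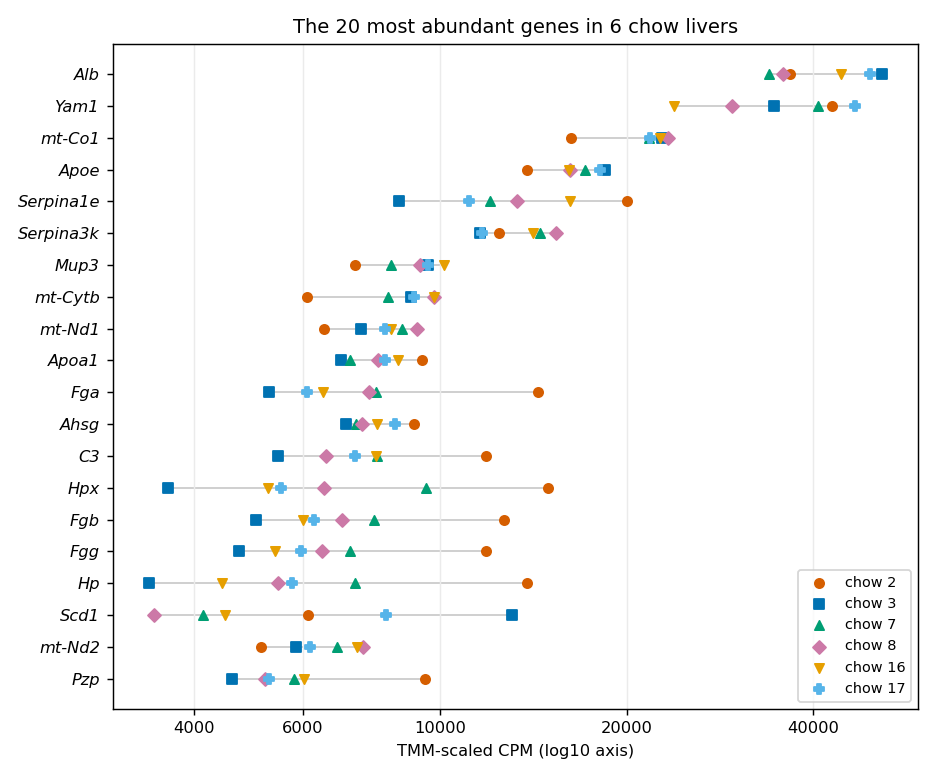
TMM-scaled CPM (horizontal log10 axis) of the 20 genes with the largest share of counts, each symbol being 1 of the 6 chow libraries and each grey line the range. Alb and Yam1 led in all libraries, and library 2 was the highest point for Serpina1e, Fga, Hpx and Hp and the lowest for mt-Co1 and mt-Cytb.

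Of the larger gene classes, mitochondrially encoded genes took 5.63 ± 0.805% of the counts. Library 2 was the lowest with 4.13%, the median was 5.71% and library 8 was the highest with 6.41%. mt-Co1, a core subunit of cytochrome c oxidase, took 2.15 ± 0.293%, and mt-Cytb, mt-Nd1 and mt-Nd2, subunits of complexes III and I, took 0.867 ± 0.151%, 0.805 ± 0.103% and 0.647 ± 0.100%. Apolipoproteins (18 genes) took 4.29 ± 0.215%, Serpina protease inhibitors (15 genes) 4.08 ± 0.533%, coagulation factors and fibrinogen (25 genes) 3.89 ± 0.938%, genes of the urea cycle and amino acid catabolism (26 genes) 3.44 ± 0.479%, cytochromes P450 (50 genes) 2.06 ± 0.232% and major urinary proteins (17 genes) 2.06 ± 0.419%. Cytosolic ribosomal proteins, 82 genes, took 1.60 ± 0.0450% and were among the steadiest classes. Genes of the cell cycle took 0.00756 ± 0.000869%, and haemoglobin transcripts, a measure of blood in the tissue, 0.0209 ± 0.00464%.

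To find genes that differed between livers by more than their abundance would lead to, the scatter of each gene was tested against that of genes of like abundance (edgeR, deviance of an intercept-only fit against the trended dispersion, Benjamini-Hochberg adjusted over 11117 genes). The trend corresponded to a coefficient of variation between libraries of 15.7% to 24.7% beyond counting error. Of the 11117 genes, 441 (3.97%) were called variable at an adjusted p under 0.05. In a plain count without a test, 2386 genes (21.5%) had a highest library above 2 times their lowest, but many of these had low counts. Among the 8765 genes that averaged 5 CPM or more the number was 1159 (13.2%). The median gene had a standard deviation of log2 CPM of 0.21 and a highest library at 1.498 times its lowest. Without library 2, 353 genes were called, and 302 of the 441 were among them.

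Among genes averaging 50 CPM or more, Ahcyl1 stood among the 10 with the smallest scatter. Ahcyl1, which regulates inositol trisphosphate receptors, ran between 115 and 120.5 CPM, a range of 1.04-fold. The splicing factors Sf3b2 and Sf3b1, the membrane protein Cd82, the histidine methyltransferase Setd3, the Golgi protein Sdf4, the mitochondrial channel Vdac2, the proteasome subunit Psma4 and the kinesin Kif1c followed, all with a highest library at 1.05 or 1.06 times their lowest except Cd82 at 1.04. Antithrombin (Serpinc1) was the only plasma protein among these 10 genes, with 1784 to 1880 CPM. Several lists held no called gene, where 3.97% of all genes were called. None of 37 proteasome subunits, none of 79 nuclear subunits of the respiratory chain and none of 18 apolipoproteins was called by edgeR. They had 0, 1 and 0 genes at an unadjusted p under 0.05, beside 1022 of all 11117 genes. Lists of this size would hold few calls at a share of 3.97%. None of their genes stood out as a dispersion outlier in DESeq2 either. That adds no separate evidence, because all DESeq2 outliers were among the genes called by edgeR. Of the cytosolic ribosomal proteins 1 of 82 was called, Rps4l, at 6.44 CPM in library 2, a median of 11.4 CPM and 23.9 CPM in library 16 (not called without library 2 or 16). The median highest library was 1.18 times the lowest for proteasome genes, 1.19 times for ribosomal proteins, 1.27 times for respiratory chain genes and 1.39 times for apolipoproteins, beside 1.498 times for all genes. Within these narrow ranges, 58 of the 82 ribosomal protein genes were highest in library 2 and 66 of the 79 respiratory chain genes were lowest in it.

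**Figure D2:**
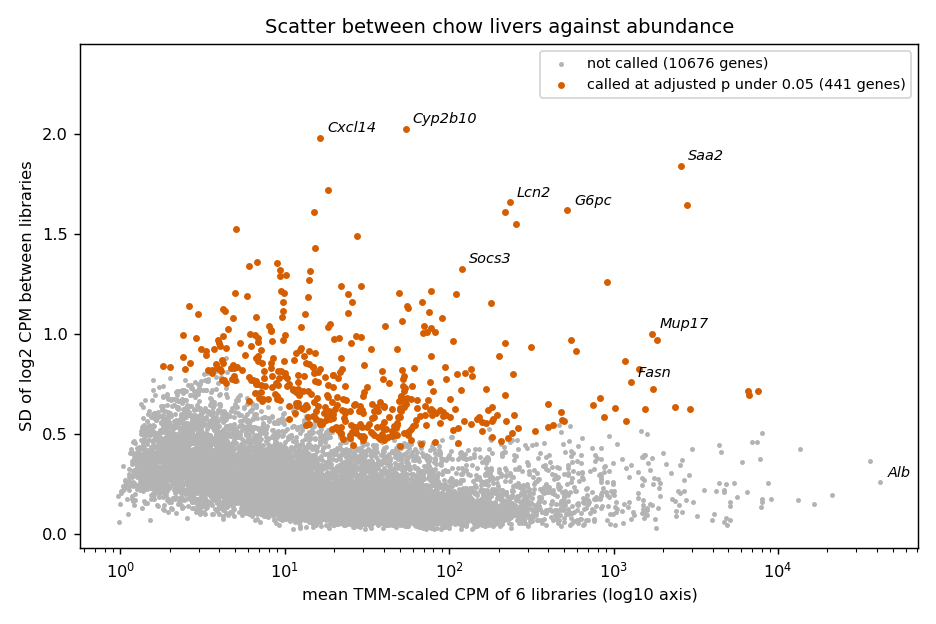
Standard deviation of log2 CPM over the 6 chow libraries (vertical axis) against the mean CPM (horizontal log10 axis) of 11117 genes, with the 441 called genes in orange and the rest in grey. Saa2, Lcn2, Cyp2b10 and G6pc lie far above genes of like abundance, whereas Alb lies inside the grey band.

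The 20 called genes with the largest scatter relative to genes of like abundance included the acute-phase proteins Orm2, Lcn2, Saa2, Saa3, Saa1 and Apcs, the cytokine-related genes Cxcl1, Socs3 and Tnfaip3, and the enzymes Cyp2b10, G6pc, Cyp26a1 and Hdc. The largest scatter was that of Cxcl14, a chemokine, with 68.8 CPM in library 2 (876 counts), 13.3 in library 7, 7.46 in library 16, 4.85 in library 8, 3.12 in library 17 and 1.05 in library 3 (14 counts), a range of 65.4-fold (adjusted p = 1.14e-48). Tff3, a trefoil peptide of mucous epithelia, had 1.58 CPM in library 3, a median of 9.02 and 53.8 CPM in library 2 (34.1-fold, adjusted p = 2.97e-29). Dnajc12, a co-chaperone of aromatic amino acid hydroxylases, had 4.58 CPM in library 3, a median of 14.9 and 68.1 CPM in library 2. These 3 genes therefore had the same libraries at their ends.

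Other genes of these 20 had other libraries at their ends. Tnfaip3, which encodes the NF-κB inhibitor A20, had 61.5 CPM in library 3 and 3.72 to 7.93 CPM in the other libraries (adjusted p = 1.38e-32), and without library 3 it was no longer called. Cyp26a1, which degrades retinoic acid, had 157 CPM in library 8 and 20.7 to 38.1 CPM in the other libraries (adjusted p = 1.67e-22), and was no longer called without library 8. Fbf1, a protein of the ciliary base, was also highest in library 8, with 139 CPM against a median of 40.7 CPM. Txnip, an inhibitor of thioredoxin and of glucose uptake, had 74.5 CPM in library 17 and a median of 14.1 CPM (lowest 6.04 CPM in library 2). Kcnk5, a potassium channel, was set apart by its lowest library, with 2.98 CPM in library 2, a median of 24.7 CPM and 56.7 CPM in library 17. Slc13a5, the citrate transporter of hepatocytes, split the libraries differently, with 45.4, 29.996 and 22.9 CPM in libraries 2, 7 and 8 and 2.48 to 4.58 CPM in libraries 3, 16 and 17 (adjusted p = 4.26e-31).

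Acute-phase proteins, which the liver secretes in larger amounts under inflammatory cytokines, were the most variable of the larger lists. Of 29 genes listed 27 were measured, and 17 of these (63.0%) were called, beside 3.97% of all genes, with a median highest library of 3.36 times the lowest beside 1.498 times for all genes. Library 2 was the highest library for 24 of the 27 genes, and the lowest was library 3 for 14 genes and library 16 for 11. Together the list took 13.3% of the counts in library 2, while the median was 6.58% and the lowest library had 5.02%. Without library 2, 12 genes were called.

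The serum amyloid A genes, whose products replace apolipoproteins on high-density lipoprotein, had wide ranges at high levels. Saa1 had 9186 CPM in library 2, 3903 in library 7, 1399 in library 17, 1146 in library 8, 538 in library 16 and 499.9 in library 3 (18.4-fold, adjusted p = 1.49e-30). Saa2 had 9539 CPM in library 2, 3077 in library 7, 1089 in library 17, 895 in library 8, 422 in library 3 and 314 in library 16 (30.4-fold, adjusted p = 5.74e-40). Both genes thus put the livers in almost the same order, with libraries 2 and 7 at the top. They are close copies, so reads can be shared between them and the single values are uncertain. Saa3, which is made mainly outside hepatocytes, had 10.02 CPM in library 16, a median of 14.7 CPM and 97.6 CPM in library 2. Saa4, known as the constitutive member of the family, was not called, at 339 CPM in library 16, a median of 552 CPM and 749.6 CPM in library 2.

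Lipocalin 2 (Lcn2), which binds bacterial siderophores, had 29.1 CPM in library 16, a median of 146 CPM and 758 CPM in library 2 (26.02-fold, adjusted p = 2.11e-40). Of the orosomucoid genes, which encode alpha-1-acid glycoproteins, Orm2 had 45.8 CPM in library 16, a median of 82.4 and 700.5 CPM in library 2 (adjusted p = 5.10e-43). Orm1 varied far less around a much higher CPM, at 917 CPM in library 3, a median of 1282 CPM and 2958 CPM in library 2 (adjusted p = 0.00358, not called without library 2). The 3 Orm genes are neighbours on chromosome 4 (63344560 to 63365878 with Gm11212, in the coordinates of the deposited table) and similar in sequence, which makes the split between them uncertain. Serum amyloid P (Apcs) had 68.8 CPM in library 3, a median of 92.3 CPM and 600.1 CPM in library 2, so that a single library set it apart, and it was not called without that library. The metalloreductase Steap4 had 200.3 CPM in library 16, a median of 916 CPM and 2033 CPM in library 2 (adjusted p = 3.65e-15), and here libraries 16 and 17 together were low. Haptoglobin (Hp) and hemopexin (Hpx), the scavengers of haemoglobin and haem, had 3387 and 3627 CPM in library 3, medians of 5612 and 6006 CPM, and 13797 and 14912 CPM in library 2 (adjusted p = 0.00106 and 0.000883), and neither was called without library 2.

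Abundant members with the same order of libraries did not all pass the test. The fibrinogen chain Fga had 5279.7 CPM in library 3, a median of 7067 CPM and 14391 CPM in library 2 (2.73-fold, adjusted p = 0.147). C3 had 5473 CPM in library 3, a median of 7589 CPM and 11867 CPM in library 2. C-reactive protein (Crp), a leading acute-phase reactant in humans but not in mice, had 326 CPM in library 16, a median of 444 CPM and 594 CPM in library 2 and was not called. None of 8 plasma proteins that are known to decline in the acute phase was called by edgeR, and none had an unadjusted p under 0.05. With 3.97% of all genes called, a list of 8 would hold few calls if any. Transthyretin (Ttr) was lowest in library 2, with 3801 CPM against a median of 4674 CPM, whereas Apoa1 was highest there. None of 25 coagulation genes, 21 complement genes or 29 interferon-stimulated genes was called by edgeR, and so none by DESeq2, beside 3.97% of all genes. At that share, lists of this size would hold few calls. Of their genes 3, 3 and 5 had an unadjusted p under 0.05, beside 1022 of all 11117 genes.

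Markers of immune cells had another order of libraries than the acute-phase genes. Summed Kupffer cell and macrophage markers (11 genes, none at 0 in all libraries) were lowest in library 2, at 175 CPM, with a median of 279 CPM and the highest sum of 427 CPM in library 7. Summed neutrophil markers (9 genes, 2 of them above the filter on low counts) were likewise lowest in library 2, at 3.85 CPM, and highest in library 7, at 18.3 CPM. The neutrophil gene Ly6g had 1 count in library 8 and 0 in the other libraries, and Ngp had 0 in library 2. Summed cholangiocyte markers were highest in library 2, with 106 CPM against a median of 68.9 CPM, but most of that sum was Spp1 with 1088 counts, whereas Krt19, Krt7 and Epcam had 11, 21 and 10 counts in library 2 and were highest in library 17 with 56, 40 and 23 counts. In bulk tissue fewer cells of a type and less RNA per cell cannot be told apart, and the part of cell composition in the gene differences was not tested.

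Because Saa1, Saa2, Orm2 and Lcn2 had their highest level in the same liver, the 250 bases before their transcription starts (RefSeq, GRCm38.p6) are shown, together with those of Socs3 and Cxcl1, which followed another order of libraries. Acute-phase promoters are known to be bound by C/EBP, STAT and NF-κB factors. Matches on either strand to TTGCNNAA (C/EBP), TTCNNNGAA (STAT) and GGG and TTCC at a distance of 3 bases (NF-κB) are in capitals. Of the 27 measured acute-phase genes 21 had a promoter in the table used, and 13 of these (61.9%) held the C/EBP letters, beside 9.56% of 32851 promoters of all genes. The STAT letters were found in 6 (28.6%), beside 7.02% of all promoters, and the NF-κB letters in 2 (9.52%), beside 4.65%. Among the 13 genes with C/EBP letters were gene copies, namely Saa1, Saa2, Saa3, Saa4, Orm2 and Orm3, which can share promoter sequence. The windows of Saa1 and Saa2 were the same at 79.1% of 249 compared bases, so matches in copies are not separate observations. The windows lie at chr7:46742981-46743230 (Saa1, minus strand), chr7:46751583-46751832 (Saa2, plus strand), chr4:63362199-63362448 (Orm2, plus strand), chr2:32387740-32387989 (Lcn2, minus strand), chr11:117969367-117969616 (Socs3, minus strand) and chr5:90890995-90891244 (Cxcl1, plus strand).
Saa1: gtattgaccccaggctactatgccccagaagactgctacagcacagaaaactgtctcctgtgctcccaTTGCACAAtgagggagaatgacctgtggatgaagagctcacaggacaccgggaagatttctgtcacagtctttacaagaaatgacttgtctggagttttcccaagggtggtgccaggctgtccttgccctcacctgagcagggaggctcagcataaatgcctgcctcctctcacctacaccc
Saa2: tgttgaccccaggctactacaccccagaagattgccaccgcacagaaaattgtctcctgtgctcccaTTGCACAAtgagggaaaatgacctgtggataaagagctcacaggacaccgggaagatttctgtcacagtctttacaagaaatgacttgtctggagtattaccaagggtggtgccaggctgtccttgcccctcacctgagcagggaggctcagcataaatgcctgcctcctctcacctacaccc
Orm2: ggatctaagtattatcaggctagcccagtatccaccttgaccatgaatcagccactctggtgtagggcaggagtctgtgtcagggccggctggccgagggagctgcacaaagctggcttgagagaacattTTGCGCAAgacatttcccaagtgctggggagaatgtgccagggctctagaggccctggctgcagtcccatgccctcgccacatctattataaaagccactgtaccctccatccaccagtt
Lcn2: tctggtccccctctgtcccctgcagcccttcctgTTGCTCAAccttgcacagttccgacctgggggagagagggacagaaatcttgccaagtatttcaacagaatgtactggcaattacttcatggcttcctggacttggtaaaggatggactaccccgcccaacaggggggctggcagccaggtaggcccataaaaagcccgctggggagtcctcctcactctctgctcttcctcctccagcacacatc
Socs3: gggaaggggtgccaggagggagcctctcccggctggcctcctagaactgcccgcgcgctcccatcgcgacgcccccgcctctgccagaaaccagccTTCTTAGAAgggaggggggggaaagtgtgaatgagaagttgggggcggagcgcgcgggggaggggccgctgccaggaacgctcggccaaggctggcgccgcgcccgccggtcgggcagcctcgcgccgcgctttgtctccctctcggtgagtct
Cxcl1: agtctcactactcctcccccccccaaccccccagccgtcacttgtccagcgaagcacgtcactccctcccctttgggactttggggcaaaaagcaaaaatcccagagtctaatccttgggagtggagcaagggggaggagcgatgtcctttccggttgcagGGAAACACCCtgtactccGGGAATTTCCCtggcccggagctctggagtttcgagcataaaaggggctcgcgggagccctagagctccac

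Saa1 and Saa2 held the same TTGCACAA at 182 to 175 and 183 to 176 bases before the start. In Orm2 the match lay 120 to 113 bases before the start, and in Lcn2 216 to 209. Socs3 held 1 STAT match, at 154 to 146 bases. In Cxcl1 the NF-κB letters matched at 89 to 80 bases and, on both strands of overlapping positions, at 71 to 61 bases. The matches are letters in these windows and were not tested as binding sites.

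Socs3, the feedback inhibitor of cytokine receptors, had 227, 177, 140.4 and 105 CPM in libraries 7, 2, 3 and 8, and 51.1 and 19.1 CPM in libraries 17 and 16 (11.9-fold, adjusted p = 2.48e-20). Cxcl1, a chemokine that attracts neutrophils, had 427, 357, 344 and 306 CPM in libraries 3, 7, 2 and 8, and 67.0 and 32.8 CPM in libraries 17 and 16 (13.0-fold, adjusted p = 2.50e-24). Il1rn, the antagonist of the interleukin-1 receptor, had 13.3 CPM in library 2, a median of 7.60 CPM and 1.24 CPM in library 16 (adjusted p = 5.84e-09). All 3 genes thus set libraries 16 and 17 below the others, and of the 3 only Il1rn was highest in library 2.

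Metallothioneins, which bind zinc and respond to metals, glucocorticoids and cytokines, varied together. Mt1 had 819.9 CPM in library 16, a median of 1674 CPM and 3208 CPM in library 2, and Mt2 had 565, 1421 and 2642 CPM in the same order (adjusted p = 0.000429 and 1.49e-05). Hmox1, which degrades haem, had 7.88 CPM in library 17, a median of 20.2 CPM and 61.4 CPM in library 2 (adjusted p = 8.40e-19). The iron hormone hepcidin (Hamp) was lowest in library 8 with 306 CPM and highest in library 2 with 1156 CPM, and was not called without library 8, while its copy Hamp2 had the reverse at library 2, 1.57 CPM, with a median of 8.97 CPM and 21.9 CPM in library 3 (adjusted p = 1.23e-10). Hamp2 had only 20 counts in library 2. Of 18 genes of this list 5 were called (27.8%, beside 3.97% of all genes).

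Genes of drug and xenobiotic metabolism tended to be lowest in library 2, which also had the most acute-phase transcripts. A relation over all 6 livers was tested only for the pair Cyp2b10 and Saa1, which cannot stand for the other genes. It was not shown for this pair, whose correlation was -0.36 (Spearman -0.49). The exact permutation p was 0.504 and 0.356 (adjusted p = 0.614 and 0.474, n = 6), and r was -0.38 without libraries 2 and 16. Of 50 measured cytochromes P450, 9 were called (18.0%, beside 3.97% of all genes), and 26 of the 50 were lowest in library 2. Of 20 genes known to respond to the receptors PXR and CAR, 6 were called, and 2 without library 2. Of 18 glutathione transferases 5 were called (27.8%), and 1 without library 2. The P450 list took 1.61% of the counts in library 2, with a median of 2.15% and a highest value of 2.23%.

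Cyp2b10, the classic target of CAR, split the livers most sharply, with 101, 95.0, 72.6 and 46.7 CPM in libraries 8, 3, 7 and 17, and 6.68 and 4.003 CPM in libraries 16 and 2 (25.2-fold, adjusted p = 2.48e-43). Gsta2, a glutathione transferase, had 2.59 CPM in library 2 (33 counts), a median of 13.7 CPM and 20.3 CPM in library 3 (adjusted p = 5.14e-06, not called without library 2). Gstt3 had 8.63 CPM in library 2 and 23.3 to 40.3 CPM elsewhere (adjusted p = 5.32e-07, not called without library 2). Cyp2a5, the coumarin hydroxylase, had 202 CPM in library 2, a median of 508 CPM and 658 CPM in library 17 (adjusted p = 0.0148, not called without library 2 or 17). The uptake transporter Slco1a4 and the export pump Abcc3 had 13.7 and 81.6 CPM in library 2, medians of 37.1 and 171 CPM, and 46.1 and 255 CPM in library 3 (adjusted p = 0.000480 and 0.0102). Neither of these was called without library 2, and Abcc3 not without library 3. Major P450 genes were steadier. Cyp2e1, the ethanol-inducible pericentral enzyme, had 4506 to 5201 CPM, and Cyp3a11, the main PXR target, 1213 CPM in library 2, a median of 1900.1 CPM and 2604 CPM in library 3 (adjusted p = 0.817). The carboxylesterase Ces2b was high in libraries 7 and 8 only, with 13.0 and 10.1 CPM, and had 0.863 to 2.80 CPM in the rest (adjusted p = 4.10e-13).

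In bile acid synthesis 3 of 16 genes were called (18.75%, beside 3.97% of all genes). Cyp7a1, whose step limits the classical pathway, had 22.4 CPM in library 2, a median of 56.04 CPM and 154 CPM in library 17 (6.86-fold, adjusted p = 1.08e-14). Cyp8b1, which directs synthesis towards cholic acid, had 203 CPM in library 2, a median of 332 CPM and 474 CPM in library 16 (adjusted p = 0.0406), and the reductase Akr1d1 54.6 CPM in library 2, a median of 117 CPM and 148 CPM in library 3 (adjusted p = 0.0236). Cyp8b1 was no longer called without library 2, 7, 8 or 16, and Akr1d1 without library 2. Both calls were also lost when the common dispersion was the reference. Cyp7b1 of the alternative pathway had 315 CPM in library 3 and 727 CPM in library 16 and was not called (adjusted p = 0.254). Cyp27a1, which starts the alternative pathway, ran between 675 and 807 CPM, and Cyp2c70, which makes muricholic acids in mice, between 637 and 1053 CPM. Among 13 nuclear and membrane receptors for bile acids and xenobiotics 1 was called (7.69%, beside 3.97% of all genes), namely Nr0b2. Nr0b2 encodes SHP, a repressor of Cyp7a1, and had 7.69 CPM in library 2, a median of 11.3 CPM and 24.6 CPM in library 16 (adjusted p = 0.00382, not called without library 16). The receptor FXR itself (Nr1h4) had 71.9 to 104 CPM.

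Of 14 bile acid transporters 2 were called (14.3%, beside 3.97% of all genes), Slco1a4 and Abcc3 above, and the median highest library of the list was 1.40 times the lowest. The main uptake carrier Slc10a1 (NTCP) had 341 CPM in library 2, a median of 459.8 CPM and 572 CPM in library 3. The export pump Abcb11 (BSEP) had 500.4 to 675 CPM, and the uptake carrier Slco1b2 902 to 991 CPM, a range of 1.10-fold.

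Genes of fatty acid and triglyceride synthesis were highest in library 3. Of 23 measured genes 8 were called (34.8%, beside 3.97% of all genes), and library 3 was the highest library for 16 of the 23. Their summed share was 2.51% of the counts in that liver, with a median of 1.29% and a lowest value of 1.03%. Malic enzyme (Me1), a source of NADPH, had 71.6 CPM in library 7, a median of 105 CPM and 309 CPM in library 3 (adjusted p = 3.50e-09). Fatty acid synthase (Fasn) had 553 CPM in library 7, a median of 1216 CPM and 2102 CPM in library 3 (adjusted p = 0.000160). The desaturase Scd1 had 3445 CPM in library 8, a median of 5303 CPM and 13078 CPM in library 3 (adjusted p = 0.000690). Srebf1, the transcription factor that drives these genes, had 111 CPM in library 2, a median of 228 CPM and 433 CPM in library 17 (adjusted p = 2.60e-07), so its highest liver was another one. Without library 3, 2 of the 23 genes were called, and 9 without library 2. Me1 and Scd1 were lost without library 3 and Fasn without library 7.

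Targets of PPARα, the fasting-responsive receptor of fatty acid oxidation, were also highest in library 3, for 16 of 31 genes, and lowest in library 2 for 23. Of the 31 genes 7 were called (22.6%, beside 3.97% of all genes). Acot1, an acyl-CoA thioesterase, had 1.88 CPM in library 2 (24 counts), a median of 5.74 CPM and 15.2 CPM in library 3 (adjusted p = 3.05e-05). Cyp4a14, a fatty acid hydroxylase, had 1.26 CPM in library 2 (16 counts), a median of 3.39 CPM and 9.31 CPM in library 3 (adjusted p = 0.000420). Acaa1b, the peroxisomal thiolase, had 168 CPM in library 2, a median of 510.0 CPM and 1112 CPM in library 3 (adjusted p = 2.13e-07). Pdk4, which restrains glucose oxidation, ran the other way, with 22.3 CPM in library 2 and 5.10 to 7.196 CPM in the others (adjusted p = 0.000128). Without library 3 Acot1 and Cyp4a14 were no longer called, and without library 2 Pdk4 was not. Carnitine palmitoyltransferase (Cpt1a), the gate of mitochondrial oxidation, had 288 to 333 CPM.

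Of 24 sterol synthesis genes 1 was called (4.17%, near the 3.97% of all genes), and 16 were highest in library 2. Idi1, the isomerase of isoprenoid units, had 79.0 CPM in library 3, a median of 98.5 CPM and 182 CPM in library 2 (adjusted p = 0.0486), and was called in none of the runs that left out library 2, 3, 7 or 8. Hmgcs1 had 425 CPM in library 8, a median of 493 CPM and 843 CPM in library 2 (adjusted p = 0.429).

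In glucose metabolism, glucose-6-phosphatase (G6pc), the last step of glucose release, varied 16.3-fold. G6pc had 1120.1, 1018 and 565 CPM in libraries 16, 17 and 3, and 202, 157 and 68.5 CPM in libraries 7, 8 and 2 (adjusted p = 1.53e-28). Pck1, the gluconeogenic enzyme that fasting is known to raise with it, had 4241 CPM in library 16, a median of 5144 CPM and 5811 CPM in library 8, a range of 1.37-fold. The correlation of the pair over the 6 livers was -0.46 (Spearman -0.43, exact permutation p = 0.367 and 0.419, adjusted p = 0.506 and 0.524, n = 6), and 0.17 without the libraries farthest from the median of Pck1. Of 22 genes of this list 3 were called (13.6%, beside 3.97% of all genes). None of 26 genes of the urea cycle and amino acid catabolism was called by edgeR, and so none by DESeq2. Of these, 3 had an unadjusted p under 0.05, beside 1022 of all 11117 genes. Cps1, which feeds ammonia into the cycle, had 4484 to 5632 CPM.

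**Figure D3:**
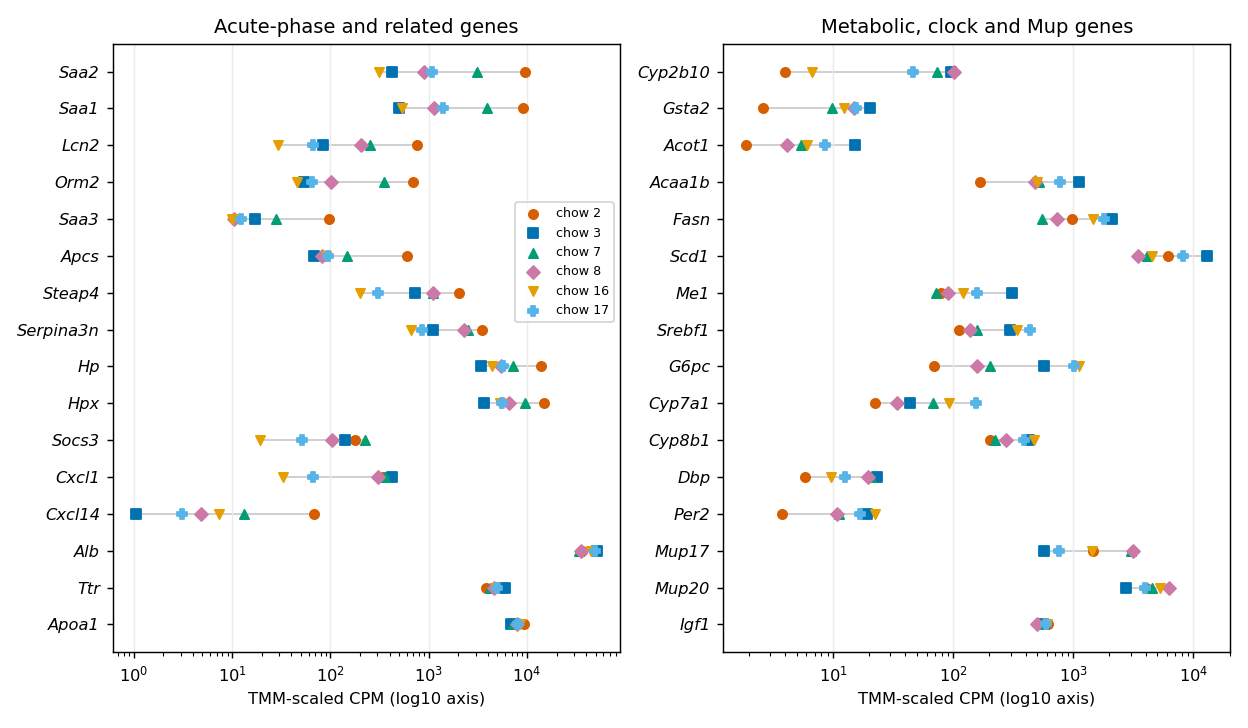
TMM-scaled CPM (horizontal log10 axes) of acute-phase and related genes at left and of metabolic, clock and Mup genes at right, each symbol being 1 of the 6 chow libraries and each grey line the range. Library 2 was the highest point for Saa1, Saa2, Lcn2, Orm2 and Hp and the lowest for G6pc, Cyp7a1, Gsta2 and Cyp2b10, whereas Igf1, Ttr and Apoa1 had narrow ranges.

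Clock genes, which oscillate over the day, are known to differ several-fold between times of day. Of 14 core clock genes 4 were called (28.6%), none of them without library 2. Of 13 output genes 6 were called (46.2%), beside 3.97% of all genes. Ciart, a repressor of the clock, had 2.83 CPM in library 2, a median of 9.19 CPM and 17.7 CPM in library 17 (adjusted p = 0.000593). Per2 had 3.77 CPM in library 2, a median of 14.0 CPM and 22.5 CPM in library 16 (adjusted p = 1.94e-05), and Cry2 27.7 CPM in library 2, a median of 64.0 CPM and 88.9 CPM in library 7 (adjusted p = 0.00712). Nr1d1, the nuclear receptor REV-ERBα, had 40.9 CPM in library 16 and 88.1 CPM in library 2 (adjusted p = 0.0386). The activator Arntl (BMAL1) had 2.91 CPM in library 8, a median of 3.96 CPM and 9.34 CPM in library 2 (adjusted p = 0.0608), and Clock, its partner, 44.8 to 58.1 CPM. Dbp, an output factor of large amplitude, had 5.81 CPM in library 2, a median of 15.99 CPM and 23.3 CPM in library 3 (adjusted p = 0.000351). Library 2 was thus low in Ciart, Per2, Cry2 and Dbp and high in Arntl and Nr1d1. None of Ciart, Per2, Cry2, Nr1d1 and Dbp was called without library 2, and Nr1d1 was also lost without library 3, 7, 16 or 17 and Cry2 without library 7. No time of killing is given in the labels, and its part was not tested.

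Of the other output genes, Pfkfb3, which makes an activator of glycolysis, had 37.8 CPM in library 17, a median of 89.1 CPM and 249 CPM in library 2 (adjusted p = 6.32e-14). Rgs16, a regulator of G protein signals, had 28.0 CPM in library 7, a median of 66.2 CPM and 172 CPM in library 17 (adjusted p = 2.42e-11). The deubiquitinase Usp2 had 3.53 CPM in library 2, a median of 9.43 CPM and 19.8 CPM in library 8 (adjusted p = 0.000525, not called without library 8). These 3 genes had their highest levels in different livers.

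Immediate early genes, induced within minutes by growth factors or stress, and glucocorticoid-responsive genes were both called often, 11 of 20 and 10 of 19, beside 3.97% of all genes. Without library 2 the counts were 8 and 8. Cyr61, a matricellular protein, had 2.67 CPM in library 2, a median of 10.3 CPM and 17.6 CPM in library 16 (adjusted p = 2.84e-07). The phosphatase Dusp1 had 126 and 91.7 CPM in libraries 17 and 16 and 29.0 to 42.1 CPM elsewhere (adjusted p = 3.07e-10). Junb, in contrast, was lowest in library 16 with 65.7 CPM and highest in library 3 with 232 CPM (adjusted p = 3.77e-05, not called without library 16). Fos, the prototype of the class, had 3.22 to 7.60 CPM and was not called. Of the glucocorticoid-responsive genes, Ddit4, an inhibitor of mTOR, had 14.1 CPM in library 2, a median of 72.5 CPM and 151 CPM in library 17 (adjusted p = 2.41e-17), and Fkbp5, a co-chaperone of the receptor, 29.0 CPM in library 16, a median of 75.7 CPM and 102 CPM in library 8 (adjusted p = 0.000727, not called without library 16). Members of neither list shared 1 order of livers.

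Major urinary proteins, pheromone carriers that male mouse liver secretes, varied in a pattern of their own. Of 17 measured Mup genes 9 were called (52.9%, beside 3.97% of all genes), and 9 without library 2. Library 8 was the highest for 12 of the 17 genes, and the lowest was library 3 for 9 and library 2 for 7. Mup18 had 17.6 CPM in library 3, a median of 43.3 CPM and 122.6 CPM in library 8 (6.95-fold, adjusted p = 6.25e-19). Mup9 had 28.5 CPM in library 3, a median of 47.9 CPM and 172 CPM in library 8 (adjusted p = 2.18e-19). Mup17 had 569 CPM in library 3, a median of 1442 CPM and 3136 CPM in library 8 (adjusted p = 7.52e-09). The most abundant members were steadier, as Mup3 had 7288 CPM in library 2, a median of 9402 CPM and 10154 CPM in library 16, and Mup20, known as darcin, 2749.8 CPM in library 3, a median of 4301 CPM and 6292 CPM in library 8 (adjusted p = 0.853). Mup15, Mup16, Mup17, Mup18 and the pseudogene Mup-ps16 were neighbours on chromosome 4 (61435790 to 61800237). Mup genes are near-identical copies, so the values of single members are uncertain and the members counted above are not separate observations.

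Of 23 genes known to be higher in male liver 5 were called (21.7%, beside 3.97% of all genes). Moxd1, a monooxygenase, had 103 CPM in library 3, a median of 365 CPM and 511 CPM in library 2 (adjusted p = 9.49e-09). Of 22 genes known to be higher in female liver only 4 passed the filter on low counts. In the growth hormone axis Socs2, its feedback inhibitor, had 8.25 CPM in library 8, a median of 17.7 CPM and 61.7 CPM in library 2 (7.48-fold, adjusted p = 1.84e-17). Cish, of the same family, had 12.4 and 11.9 CPM in libraries 2 and 3 and 2.53 to 6.22 CPM elsewhere (adjusted p = 1.11e-05). Igf1, of the same axis, had 499.9 to 619 CPM, a range of 1.24-fold, and was not called.

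Chaperones of the endoplasmic reticulum were highest in library 16 for 13 of 26 genes, and 5 of the 26 were called (19.2%, beside 3.97% of all genes). Creld2, a secreted chaperone of the unfolded protein response, had 30.8 CPM in library 3, a median of 46.2 CPM and 102 CPM in library 16, with 95.6 CPM in library 7 (adjusted p = 2.60e-07). Hspa5 (BiP), the main chaperone, had 649 CPM in library 8, a median of 768 CPM and 1268 CPM in library 16 and was not called (adjusted p = 0.766). Asns, asparagine synthetase, followed library 2 instead, with 48.9 CPM there and a median of 14.9 CPM (adjusted p = 4.89e-08, not called without library 2). Of 16 heat shock genes 2 were called (12.5%), none of them without library 7. Of the 16, 11 were highest in library 7, where Hspb1 had 40.7 CPM against a median of 18.3 CPM (adjusted p = 6.10e-05).

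**Figure D4:**
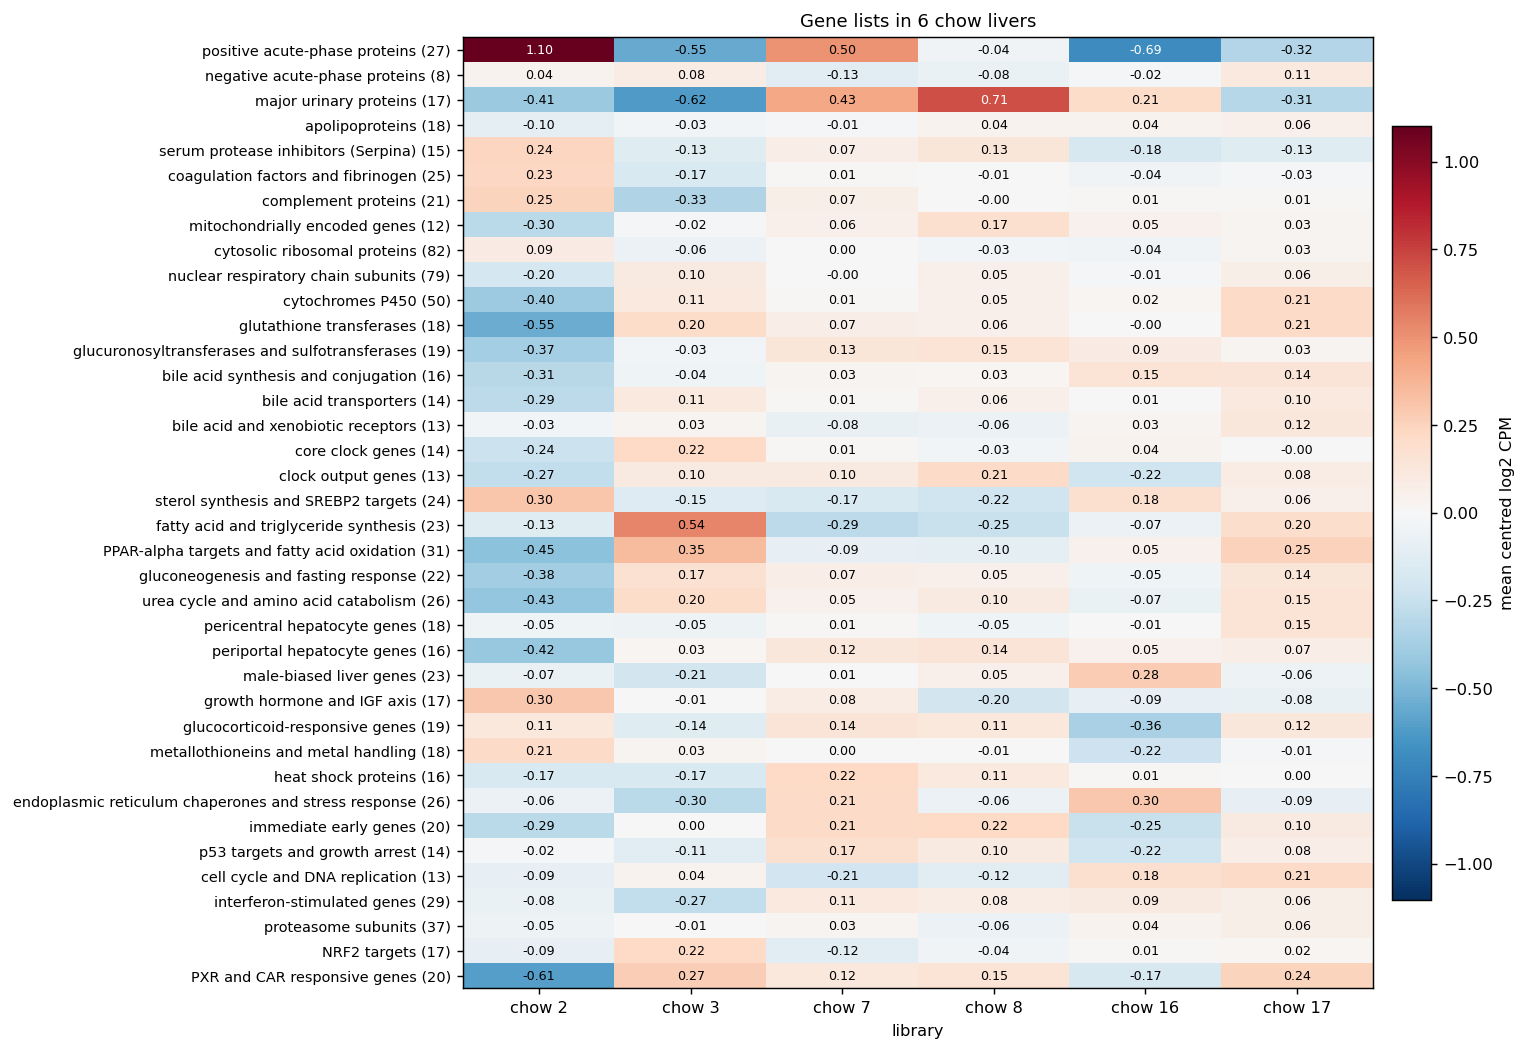
Mean of log2 CPM centred on each gene (colour and printed number) for the gene lists with at least 8 measured genes (rows, number of genes in brackets) in the 6 chow libraries (columns). Positive acute-phase proteins had 1.10 in library 2 and -0.69 in library 16, fatty acid synthesis had 0.54 in library 3, and the Mup list had 0.71 in library 8 and -0.62 in library 3.

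The 399 called genes that averaged 5 CPM or more were joined by the correlation of their log2 CPM over the 6 livers. At an average correlation of 0.7, 9 groups of at least 10 genes held 317 of them (79.4%). With 6 points high correlations arise easily, and these genes had been chosen for their scatter, so the groups are a description without a test.

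The largest group, 61 genes led by Cxcl14, Saa2, Lcn2, Saa1 and Tff3, was highest in library 2 (mean centred log2 CPM of 1.28) and lowest in library 3 (-0.82). It held 11 acute-phase genes, among them Hp, Hpx, Orm1 and Apcs. The second group, 59 genes with Slc13a5, Steap4 and Hmox1, was high in libraries 2, 8 and 7 (0.93, 0.48 and 0.42) and low in libraries 16 and 17 (-0.85 and -0.71), and it contained both metallothioneins. Another group of 59 genes was low in library 2 (-0.82) and library 7 (-0.59) and high in libraries 3, 17 and 16 (0.61, 0.53 and 0.49). It joined G6pc with 6 genes of fatty acid synthesis, Srebf1, Me1, Fasn, Pklr, Thrsp and Acly. Pklr and Acly were lost without library 3, and Acly without library 7. The fourth, 48 genes led by Hamp2, was set by library 2 (-1.40), and held Gsta2, Gstt3, Slco1a4, Abcc3, Cyp2a5, Acot1, Acaa1b, Per2 and Ciart. Among its leaders were Etnppl, the phospholyase of ethanolamine phosphate, with 20.6 CPM in library 2 and 227 CPM in library 3, and the methyltransferase Inmt, with 54.4 CPM in library 2 and 376 CPM in library 3 (not called without library 2).

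The fifth group, 28 genes with Cxcl1, Il1rn, Socs3 and the leptin receptor Lepr, was low in library 16 (-1.23) and library 17 (-0.56) and even across the others (0.40 to 0.53). The sixth, 20 genes with Ddit4, Hdc, Txnip, Cyp7a1 and Dusp1, was high in libraries 17 and 16 (0.89 and 0.75) and low in library 2 (-0.97). Hdc makes histamine from histidine and had 12.8 CPM in library 2, a median of 48.6 CPM and 109.9 CPM in library 16. A group of 15 genes held 6 Mup genes with Moxd1 and Creld2, high in libraries 7 and 8 (0.84 and 0.60) and low in library 3 (-1.04). As near-identical copies, its Mup genes are not separate observations. Within the first and the fourth group the mean correlation of gene pairs was 0.80 and 0.89 over all livers, and 0.52 and 0.55 without library 2. In the groups led by Slc13a5, G6pc and Mup18 it was 0.83, 0.78 and 0.81, and 0.78, 0.74 and 0.86 without library 2. In the fifth group it was 0.85, and 0.63 without library 16.

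**Figure D5:**
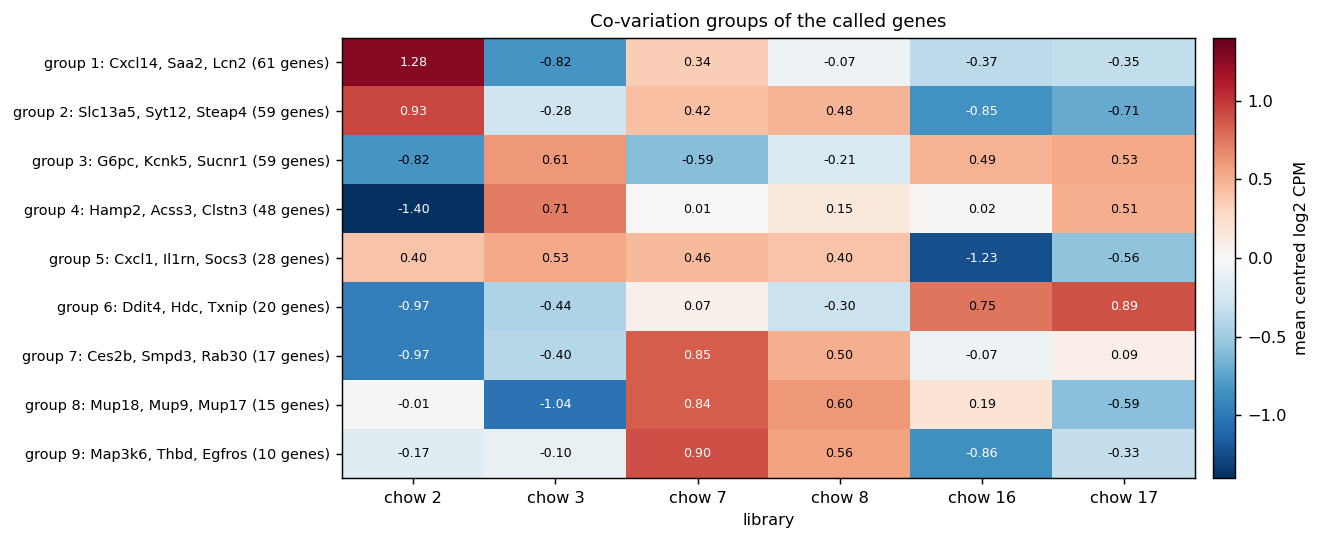
Mean of log2 CPM centred on each gene (colour and printed number) in the 9 co-variation groups of called genes (rows, with 3 leading genes and the number of genes) over the 6 chow libraries (columns). Groups 1 and 4 are set by library 2 (1.28 and -1.40), group 5 by libraries 16 and 17, and group 8, with the Mup genes, by libraries 3, 7 and 8.

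Pairs of genes known to act together were tested for correlation of log2 CPM (exact permutation over 720 pairings, two-sided, n = 6, 40 pairs, smallest p 0.00139). For 3 pairs the adjusted p of Pearson's r was under 0.05, and 12 had an unadjusted p under 0.05. Saa1 and Hp had r = 0.97 and rho = 1 (exact permutation p = 0.00139 and 0.00278, adjusted p = 0.0278 and 0.0556), and r = 0.91 without libraries 2 and 7. Mt1 and Mt2 had r = 0.995 and rho = 1 (exact permutation p = 0.00139 and 0.00278, adjusted p = 0.0278 and 0.0556), and r = 0.999 without libraries 2 and 16. Saa1 and Saa2 had r = 0.995 and rho = 0.94 (exact permutation p = 0.00278 and 0.0167, adjusted p = 0.0370 and 0.133), and r = 0.97 without libraries 2 and 7. Saa1 and Saa2 are close copies, so reads can be shared between them and their levels are not separate observations.

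Other pairs rested on the livers at their ends or did not pass the correction. Saa1 and Orm2 had r = 0.97 and rho = 0.89 (exact permutation p = 0.00556 and 0.0333, adjusted p = 0.0556 and 0.133) and r = 0.71 without libraries 2 and 7, and Saa1 and Lcn2 had r = 0.88 and rho = 0.71 (exact permutation p = 0.0292 and 0.136, adjusted p = 0.106 and 0.320) and r = 0.50 without them. Hmgcs1 and Sqle, of sterol synthesis, had r = 0.92 and rho = 0.77 (exact permutation p = 0.00833 and 0.103, adjusted p = 0.0556 and 0.274), and r = 0.54 without libraries 2 and 16. Fasn and Srebf1 had r = 0.79 and rho = 0.60 (exact permutation p = 0.0931 and 0.242, adjusted p = 0.202 and 0.460), and r = 0.90 without libraries 3 and 7. Dbp and Arntl, which oscillate in opposite phase, had r = -0.80 and rho = -0.49 (exact permutation p = 0.0639 and 0.356, adjusted p = 0.160 and 0.474), but r = 0.68 without libraries 2 and 16, so the negative relation rested on those livers. Cyp7a1 and Nr0b2 had r = 0.71 and rho = 0.77 (exact permutation p = 0.121 and 0.103, adjusted p = 0.220 and 0.274), and r = 0.55 without libraries 2 and 17. Cyp7a1 and Saa1 had r = -0.41 and rho = -0.26 (exact permutation p = 0.413 and 0.658, adjusted p = 0.532 and 0.752), and r = 0.05 without libraries 2 and 17.

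For 6 genes the called genes with the most similar pattern were looked up among the 399, by Pearson's r of log2 CPM over the 6 livers. Saa1 was closest to Saa2 (0.995), the adenylate cyclase Adcy1 (0.98) and the macrophage pore protein Mpeg1 (0.98). Of the 399 genes 26 had r above 0.9 with Saa1, and 14 had r below -0.9. Saa1 and Saa2 are close copies, as are the Mup genes below, so reads can be shared between them. Cyp7a1 was closest to the transcriptional regulator Cited2 (0.97), the small GTPase Arl4d (0.97) and the mitochondrial carrier Slc25a47 (0.96). Cyp4a14 was closest to Thrsp (0.995), a lipogenic gene, to the kinase Pdk1 (0.98) and to the lipase Lipg (0.98). Dbp was closest to Arhgef37 (0.96), Cyp2b10 (0.95) and Snhg11 (0.94), Hmgcs1 to Spata13 (0.97), Idi1 (0.96) and the choline kinase Chka (0.92), and Mup20 to Mup16 (0.93), Mup15 (0.84) and Mup11 (0.83). Of these neighbours Adcy1, Mpeg1, Thrsp, Pdk1, Spata13, Idi1 and Chka were not called without library 2, Mup11 not without library 3, Snhg11 not without library 7 and Slc25a47 not without library 8 or 17. Mpeg1, Thrsp, Pdk1 and Idi1 were lost without library 3 as well, Mpeg1, Thrsp and Idi1 without library 7, and Spata13 and Idi1 without library 8.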

How the data were processed

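RNA of 12 liver samples was sequenced by the authors, who deposited raw read counts per gene and a gene length for 35275 genes. The submitters' processing notes name CASAVA, STAR and DESeq2 without versions or settings, and neither the genome build nor the strand setting is stated there. Strand being unknown, antisense and overlapping genes are uncertain. Only the 6 chow columns were used. The authors' tables of diet comparisons (fold changes and p-values) were not used. Genes were kept by filterByExpr (11117 genes), scaled by TMM and fitted with an intercept in edgeR 4.0.16 (R 4.3.3, limma 3.58.1). The deviance of each gene was tested against the trended dispersion with 5 residual degrees of freedom and Benjamini-Hochberg adjustment. SD values on the log2 scale used a prior count of 2. TPM values used the deposited gene lengths. Pair tests used scipy 1.17.1. The steps were tested on simulated data. Alternatives were other scalings, filters and dispersions, thinning, DESeq2 1.42.0 and leaving out each library.

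Genes were named by rank of abundance, scatter or steadiness, as the 4 widest members of each list, as listed pairs, or as leaders of co-variation groups. Other members of the lists were added after their values were seen. Some members of the lists are not reported here. Samples, lists and tests were chosen with earlier results of these data known. Symbols turned into dates (27 genes) were restored. Gene coordinates are those of the deposited table, and 72.3% of 34490 genes found in GENCODE M21 (GRCm38) had the same position there. Each library held 12209706 to 13715026 counts, and the lowest and highest count of a gene limits the precision of its level.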

Additional observations from a re-analysis of the deposited data

Results flagged for a closer look

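Of 227 sets of 6 values examined (library measures, list shares, summed markers and named genes), 23 had a library whose gap to the nearest other exceeded Dixon's 95% critical value for 6 values. Chance flags about 1 in 20 such groups. Library 2 was the separate one in 18 of the 23.

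In library 2 the 50 and the 100 most abundant genes took 39.9% and 48.7% of the counts, 112 genes reached 50% of them, and mitochondrially encoded genes took 4.13%, the last being counted once as a library measure and once as a list. Coagulation factors and fibrinogen took 5.69% of its counts, cytochromes P450 1.61% and glutathione transferases 0.382%. Single genes were separate in it at the low end, namely Cry2 (27.7 CPM), Gsta2 (2.59 CPM), Gstt3 (8.63 CPM), Hal (194 CPM), Inmt (54.4 CPM), mt-Co1 (16238 CPM) and mt-Cytb (6084 CPM). At the high end were Apcs (600.1 CPM), Pdk4 (22.3 CPM) and Pzp (9450.2 CPM). Across all 11117 genes, 685 (6.16%) had such a gap, and library 2 was the low one for 206 and the high one for 98 of them.

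Tnfaip3 (61.5 CPM) and pyruvate kinase Pklr (352 CPM) were separately high in library 3, and Cyp26a1 (157 CPM) in library 8. Summed markers of hepatic stellate cells and matrix were separately high in library 17 (304 CPM), and Xist, transcribed from an inactive X chromosome, was separately low in library 16 (0.233 CPM), near the limit of detection in these male livers.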

How the results depend on the processing

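The number of genes called variable, 441, was 439, 440 and 430 with scaling by RLE, by upper quartile and by total counts, 488 without the filter on low counts, 411 among genes of at least 5 CPM, 470 against the common dispersion and 437 after thinning to the smallest library. Of the 441 genes, 388 were shared with the unfiltered run and 375 with the common dispersion. Leaving out each library in turn gave 353 to 385 genes, with 302 of the 441 shared without library 2. DESeq2, which marked genes whose dispersion lay over 2 residual SD above its trend, gave 82, all among the 441, and this rule is stricter by construction. The number of genes with a highest library above 2 times the lowest, 2386, was 12109 of 21005 genes without the filter, where low counts enter, 2383 and 2393 under RLE and total counts, 2333 and 2186 with prior counts of 0.5 and 2 (the second chosen after seeing the data), and 1747 (without library 2) to 2186 with each library left out. Of 161 called genes among the 284 that the rule or the text names, 54 were called under every setting. No paired analysis was possible because a single group was described. With 12209706 to 13715026 counts per library, genes under 5 CPM rest on few counts.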

Other observations

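A further pair of co-variation groups joined libraries 7 and 8. A group of 17 genes was high in library 7 (mean centred log2 CPM of 0.85) and library 8 (0.50) and low in library 2 (-0.97). It held the sphingomyelinase Smpd3, with 2.43 CPM in library 2, a median of 7.43 CPM and 17.2 CPM in library 8 (edgeR, adjusted p = 2.66e-06), and Cd163, the haptoglobin-haemoglobin receptor of macrophages, with 6.67 CPM in library 2, a median of 13.2 CPM and 21.7 CPM in library 7 (adjusted p = 0.0121, not called without library 2 or 7). A group of 10 genes was high in the same 2 libraries (0.90 and 0.56) and low in library 16 (-0.86), with the kinase Map3k6 at 6.68 CPM in library 16, a median of 13.3 CPM and 37.4 CPM in library 8 (adjusted p = 6.18e-11). Insulin receptor substrate 2 (Irs2) belonged to it, at 35.9 CPM in library 16, a median of 43.6 CPM and 85.5 CPM in library 7 (adjusted p = 0.0489), but its call was lost without library 3, 7, 16 or 17, with scaling by total counts, without the filter and against the common dispersion. Orm3 belonged to it too, at 24.0 CPM in library 16, a median of 50.8 CPM and 94.7 CPM in library 7, and was not called without library 16.

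Hepatocyte zonation was described by 18 pericentral genes, of which 2 were called (11.1%), and by 16 periportal genes, of which 1 was called (6.25%). Of all genes 3.97% were called, so these small counts lie near the share of all genes. In library 2, 10 of the periportal and 6 of the pericentral genes had their lowest value. Glutamine synthetase (Glul), which marks the innermost pericentral layer, had 898 CPM in library 8, a median of 946 CPM and 1283 CPM in library 2, while histidine ammonia-lyase (Hal), a periportal enzyme, had 194 CPM in library 2, a median of 415 CPM and 441 CPM in library 16, and neither was called.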
